A study of Homo sapiens with 24 samples.

Results

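The tricarboxylic acid (TCA) cycle, the steps that feed it and the shuttles that carry NADH into mitochondria were followed as a set of 29 genes, chosen by function. The set held 13 enzymes of the cycle (CS, IDH2, IDH3A, IDH3B, IDH3G, OGDH, DLST, DLD, SUCLG1, SUCLG2, SUCLA2, FH, MDH2), 6 genes of pyruvate entry (MPC1, MPC2, PDHA1, PDHB, DLAT, PC), 4 regulators of pyruvate dehydrogenase (PDK1, PDK2, PDK3, PDP1), 5 genes of the NADH shuttles (MDH1, GOT1, GOT2, GPD2, GPD1L) and GLUD1. All 29 were present among the 31524 gene identifiers that the untreated and MPP+ tables share, and all 29 passed the filter on low values in both. The 24 libraries came from cells labelled SH-SY5Y, a neuroblastoma line used as a model of dopaminergic neurons. They formed 8 groups of 3: cells with a hairpin against MCART1 (shMCART1), with a scrambled hairpin (shScramble), with an MCART1 overexpression construct (oeMCART1) or with its control (oeNC), each given 0.5 mM MPP+ for 24 h or left untreated. The growth protocol also names HEK293T, a human embryonic kidney line. The labels do not say which promoters drive the constructs, how many clones stand behind a group or whether the replicates of a group were grown apart. The p-values therefore cover the spread of these libraries alone, which may be technical.

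MCART1 is an older name for SLC25A51, the inner-membrane carrier that brings NAD+ into the mitochondrial matrix. There NAD+ is the electron acceptor of pyruvate dehydrogenase and of the isocitrate, 2-oxoglutarate and malate dehydrogenase steps of the TCA cycle, and the NADH formed is reoxidised by respiratory complex I, the enzyme that MPP+ blocks. Cytosolic NADH cannot cross the inner membrane: the malate-aspartate shuttle (MDH1 and GOT1 in the cytosol, MDH2 and GOT2 in the matrix) and the glycerol phosphate shuttle (GPD2 in the inner membrane with a cytosolic dehydrogenase) carry its electrons instead.

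The values are TPM, transcript abundances per length that the authors scaled to one total for all libraries, so the depth of each library is unknown. Between 13022 and 14306 genes reached 1 TPM in a library, and correlations between replicates of a group ran from 0.970 to 0.988. SLC25A51 itself had 6.91, 9.45 and 5.47 TPM in untreated shMCART1 libraries, against 10.5, 11.1 and 11.25 TPM in shScramble libraries (log2 change of -0.56 ± 0.14 SE, adjusted p = 0.0195, limma). With MPP+ it had 5.12, 5.82 and 5.06 TPM in shMCART1 libraries, against 6.87, 8.38 and 8.47 TPM in shScramble libraries (-0.49 ± 0.09, adjusted p = 0.00239). The overexpression construct gave 697, 674 and 678 TPM, against 29.5, 35.7 and 29.7 TPM in oeNC libraries, without MPP+ (4.39, adjusted p = 2.37e-08), and 1007.5, 931 and 869.9 TPM, against 7.87, 8.15 and 9.44 TPM, with it (6.63, adjusted p = 1.08e-12). The untreated oeNC libraries thus held more SLC25A51 than the shScramble ones (1.44, adjusted p = 0.00203). Several defining adrenergic markers of the line were at or near 0: of 10 such genes, 5 stayed under 1 TPM in every library that was read, with TH at most 0.04 TPM in all 24. GATA3 (3.85 to 7.24 TPM) and HAND2 (1.39 to 4.44 TPM) were detected. Of 8 mesenchymal markers 7 reached 1 TPM in at least 1 library, among them FN1 (9.30 to 22.0 TPM) and YAP1 (5.07 to 14.4 TPM). CD44 did so in 1 of 24 libraries and PRRX1 in 11, and COL1A2 stayed at or under 0.09 TPM. The cells are therefore called by their label only.

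In untreated shScramble libraries CS, which starts the cycle by joining acetyl-CoA to oxaloacetate, had 302 ± 30.0 TPM, MDH2 had 299 ± 25.2 TPM and GOT2 had 223 ± 16.1 TPM (SD, n = 3). At the other end stood GPD2 with 5.85 ± 2.06 TPM, the pyruvate dehydrogenase phosphatase PDP1 with 6.01 ± 1.115 TPM and the kinases PDK3 with 6.53 ± 0.799 TPM and PDK1 with 6.60 ± 0.960 TPM. The 29 genes together held 2344 ± 25.1 TPM in oeMCART1, 2181 ± 95.0 TPM in oeNC, 2269 ± 113 TPM in shMCART1 and 2420 ± 55.0 TPM in shScramble libraries without MPP+.

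Promoter sequences are shown for IDH3A and MDH2, which moved in opposite directions in the 4 construct comparisons described below, and for GOT1, whose level separated the MPP+ libraries from the untreated ones. Each run covers the 250 bases before the start of transcription, 5′ to 3′ on the strand of the gene, from RefSeq on GRCh38.p14: IDH3A at chr15:78149112-78149361 on the plus strand, MDH2 at chr7:76047856-76048105 on the plus strand and GOT1 at chr10:99430625-99430874 on the minus strand. Capitals mark the only match found to the motifs searched.
IDH3A: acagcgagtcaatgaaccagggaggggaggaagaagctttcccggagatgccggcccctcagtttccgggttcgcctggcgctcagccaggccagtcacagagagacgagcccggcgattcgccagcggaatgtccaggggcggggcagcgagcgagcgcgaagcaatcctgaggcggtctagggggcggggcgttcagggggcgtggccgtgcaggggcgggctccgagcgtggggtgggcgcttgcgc
MDH2: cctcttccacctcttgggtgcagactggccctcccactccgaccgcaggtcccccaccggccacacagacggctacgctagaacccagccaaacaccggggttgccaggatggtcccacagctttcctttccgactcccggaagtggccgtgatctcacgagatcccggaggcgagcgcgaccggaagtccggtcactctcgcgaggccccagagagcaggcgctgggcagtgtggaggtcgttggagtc
GOT1: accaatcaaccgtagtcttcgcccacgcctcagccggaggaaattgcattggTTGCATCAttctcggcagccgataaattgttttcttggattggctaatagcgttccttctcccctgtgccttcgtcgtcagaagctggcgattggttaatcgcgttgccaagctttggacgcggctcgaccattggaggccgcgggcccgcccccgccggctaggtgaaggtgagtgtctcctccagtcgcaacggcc
The motifs, read on both strands, were TGATGCAA (a C/EBP-ATF response element), AAGGTCA (the ERR core site), AAGATGG (YY1), TGACGTCA (CRE) and the NRF1 palindrome. Of 27 promoters of the set in the table, 1 held TGATGCAA (GOT1, in reverse, starting 198 bases before the transcript), against 0.82% of 27305 promoters of this length, and 1 held AAGGTCA (SUCLA2), against 3.46%. No promoter of the set held the NRF1 palindrome, AAGATGG or TGACGTCA, which 1.13%, 3.77% and 1.77% of all promoters held. A match is a description of these letters and does not show binding. The GC content of the 3 windows was 70.0% for IDH3A, 66.0% for MDH2 and 58.0% for GOT1.

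Knockdown of MCART1 in untreated cells asked how the set responds to less of the NAD+ carrier. By limma's moderated test on log2(TPM + 1), with Benjamini-Hochberg adjustment over all genes, 17 of the 29 genes passed an adjusted p of 0.05 in shMCART1 against shScramble libraries, where 34.2% of all genes tested passed. Of these, 4 were higher (8.64% of all genes were) and 13 were lower (25.6% of all genes were). The median change of the set was -0.29, and that of all genes -0.15. Lower levels were found for 4 TCA enzymes, 4 genes of pyruvate entry, 3 of the shuttles, PDP1 and GLUD1. As these are bulk samples, fewer cells of a kind and less RNA per cell cannot be told apart.

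IDH3A, the catalytic subunit of the NAD+-dependent isocitrate dehydrogenase, had 18.4, 23.2 and 13.6 TPM in shMCART1 libraries, against 28.8, 36.9 and 32.8 TPM in shScramble libraries. The groups did not overlap, and the log2 change was -0.83 ± 0.18 SE (adjusted p = 0.0148, limma). DLD, the dihydrolipoyl dehydrogenase shared by the pyruvate and 2-oxoglutarate dehydrogenase complexes, where it hands electrons to NAD+, had 15.9, 20.4 and 8.15 TPM in shMCART1 libraries, against 29.9, 31.7 and 31.8 TPM in shScramble libraries (-1.11 ± 0.26, adjusted p = 0.0158). It was the largest change of the set in this comparison. MDH1, the cytosolic malate dehydrogenase of the malate-aspartate shuttle, had 139, 166 and 97.0 TPM in shMCART1 libraries, against 197, 242 and 193 TPM in shScramble libraries (-0.68 ± 0.17, adjusted p = 0.0175).

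MDH2, the matrix counterpart of MDH1, and the regulatory partners of IDH3A went the other way, as did PC. The partners of DLD did not: DLAT and PDHB were lower, as given below. OGDH averaged 34.1 TPM in shMCART1 and 34.9 TPM in shScramble libraries, and DLST 77.9 and 78.1 TPM. GOT2, of the same shuttle as MDH1, averaged 223 TPM in each. MDH2, the matrix malate dehydrogenase, had 363, 339 and 406 TPM in shMCART1 libraries, against 306, 271 and 319.7 TPM in shScramble libraries (0.31 ± 0.08, adjusted p = 0.0213). IDH3G, a regulatory subunit that assembles with IDH3A, had 137, 126 and 155 TPM in shMCART1 libraries, against 115, 92.5 and 113 TPM in shScramble libraries (0.38 ± 0.10, adjusted p = 0.0223), and IDH3B, the other such subunit, rose by 0.22 ± 0.07 (0.0278). Pyruvate carboxylase, PC, which makes oxaloacetate from pyruvate, had 9.98, 9.65 and 12.2 TPM in shMCART1 libraries, against 8.55, 6.97 and 8.34 TPM in shScramble libraries (0.37 ± 0.12, adjusted p = 0.0323). For MDH2, IDH3G, IDH3B and PC the groups did not overlap.

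Among the genes of pyruvate entry, MPC1, one subunit of the mitochondrial pyruvate carrier, had 80.3, 88.1 and 72.1 TPM in shMCART1 libraries, against 109.6, 114 and 111 TPM in shScramble libraries (-0.48 ± 0.08, adjusted p = 0.0139). Its partner MPC2 fell by 0.46 ± 0.12 (adjusted p = 0.0213). The pyruvate dehydrogenase subunits PDHB and DLAT changed by -0.30 and -0.49, both past the threshold, and PDHA1 did not pass it. PDP1, which reactivates the complex, had 3.31, 4.35 and 2.19 TPM in shMCART1 libraries, against 5.80, 7.22 and 5.02 TPM in shScramble libraries (-0.73 ± 0.20, adjusted p = 0.0223). GPD2, the glycerol phosphate shuttle enzyme of the inner membrane, had 1.98, 4.91 and 1.90 TPM in shMCART1 libraries, against 8.03, 5.58 and 3.94 TPM in shScramble libraries (-0.84 ± 0.28, adjusted p = 0.0371). The GPD2 groups overlapped. GLUD1, which turns glutamate into 2-oxoglutarate, fell by 0.58 ± 0.18 (adjusted p = 0.0286).

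The number of calls in this comparison rested on single libraries. Without shScramble replicate 2 none of the 29 passed, and 2 of 14611 genes did in all (5106 had an unadjusted p under 0.05 by limma). Without shMCART1 replicate 3, which had the lowest IDH3A, DLD, MDH1 and MPC1 and the highest MDH2 of its group, 4 passed (971 of 14619 genes did). Without shMCART1 replicate 1, 5 passed (2253 of 14617 genes did), and without shScramble replicate 1, 11 passed (3203 of 14615 did). The size of the changes moved too: over the 6 fits that left out 1 library the log2 change ran from -1.37 to -0.76 for DLD, from -1.002 to -0.64 for IDH3A and from -0.85 to -0.46 for MDH1, and for DLD and IDH3A it was smallest without shMCART1 replicate 3. Without shScramble replicate 2, IDH3A stood at -0.74 (adjusted p = 0.0743), DLD at -1.10 (0.0752), MDH1 at -0.57 (0.0834) and MPC1 at -0.46 (0.0738), and these 4 were called in the other 5 fits that left out 1 library. MDH2, IDH3B, IDH3G, MPC2 and PDP1 were also lost without shMCART1 replicate 1 or 3, with adjusted p up to 0.0959. SUCLA2 was lost without shScramble replicate 2 or shMCART1 replicate 3 (up to 0.0794), GPD2, GLUD1, DLAT and PC were lost in 4 of the 6 fits (up to 0.141), and PDHB, FH and GPD1L in 5 (up to 0.167).

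The changes followed the GC content of the transcripts, in the set and in all genes. Over the 29 genes, Spearman's rho between the log2 change and transcript GC was 0.77 for untreated knockdown, -0.82 for untreated overexpression, 0.63 for knockdown with MPP+ and -0.80 for overexpression with MPP+, against 0.77, -0.79, 0.46 and -0.59 over all genes. These are relations across genes, which share libraries and are not independent replicates. Values with each library's trend on GC removed are therefore given beside the others. That removal also takes out each library's overall level, so a call lost or reversed by it cannot be credited to GC alone. A GC trend in the RNA of the cells and one made in the libraries cannot be told apart.

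**Figure D1:**
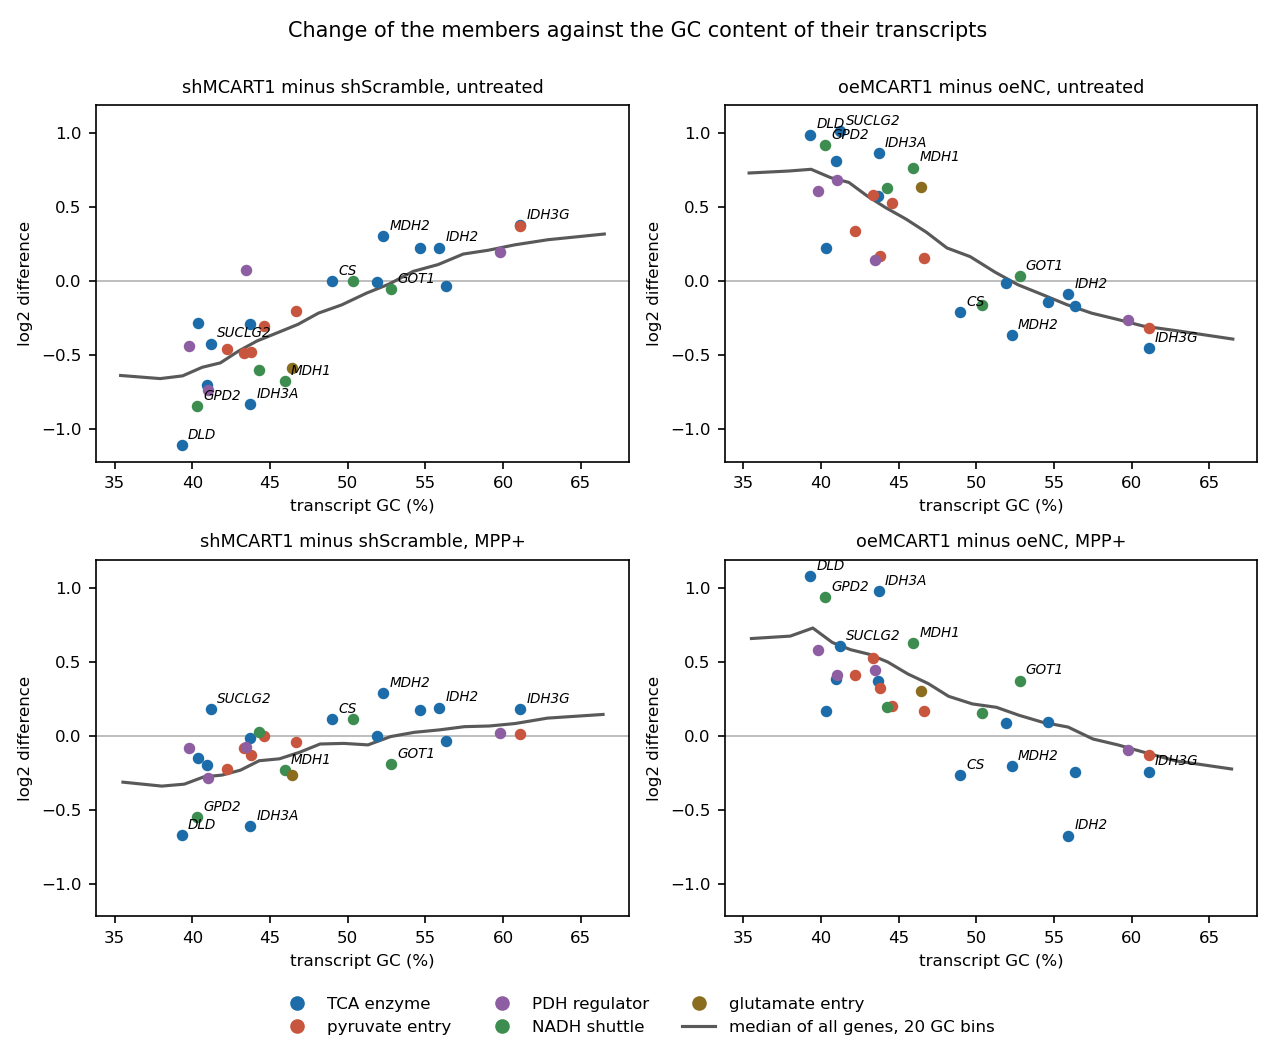
Log2 change of the 29 genes (points, coloured by role) against the GC content of their transcripts in percent, in the 4 construct comparisons, with the median change of all genes in 20 GC bins as a line. IDH3A (43.7% GC) and MDH2 (52.3% GC) lie off the line on opposite sides, and IDH2 lies far below it in oeMCART1 minus oeNC with MPP+ (-0.67).

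With the GC trend removed, 7 of the 29 genes passed in untreated knockdown (10.6% of all genes did), 4 higher (4.37% of all genes were) and 3 lower (6.23% were). IDH3A (-0.42, adjusted p = 0.017), DLD (-0.52, 0.0437), MDH1 (-0.39, 0.0263), MDH2 (0.34, 0.0395) and IDH3B (0.17, 0.0453) were called both ways and also under both other scalings (median of ratios and quantile) and with a length trend removed as well. The changes of pyruvate entry did not remain: MPC1 stood at -0.07 (adjusted p = 0.516), MPC2 at 0.03 (0.652), PDHB at 0.06 (0.517) and DLAT at -0.06 (0.515). GPD2 (-0.27, adjusted p = 0.431), PDP1 (-0.19, 0.182), IDH3G (0.14, 0.0959), PC (0.13, 0.236) and GLUD1 (-0.32, 0.0533) did not pass either. In all, 12 of the 17 calls were lost. Median-of-ratios scaling put the all-gene median at 0.02 and gave 6 higher and 10 lower calls (2966 and 2955 of 14627 genes). Quantile normalization gave 6 and 11 (2586 and 2900 of 14703 genes).

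**Figure D2:**
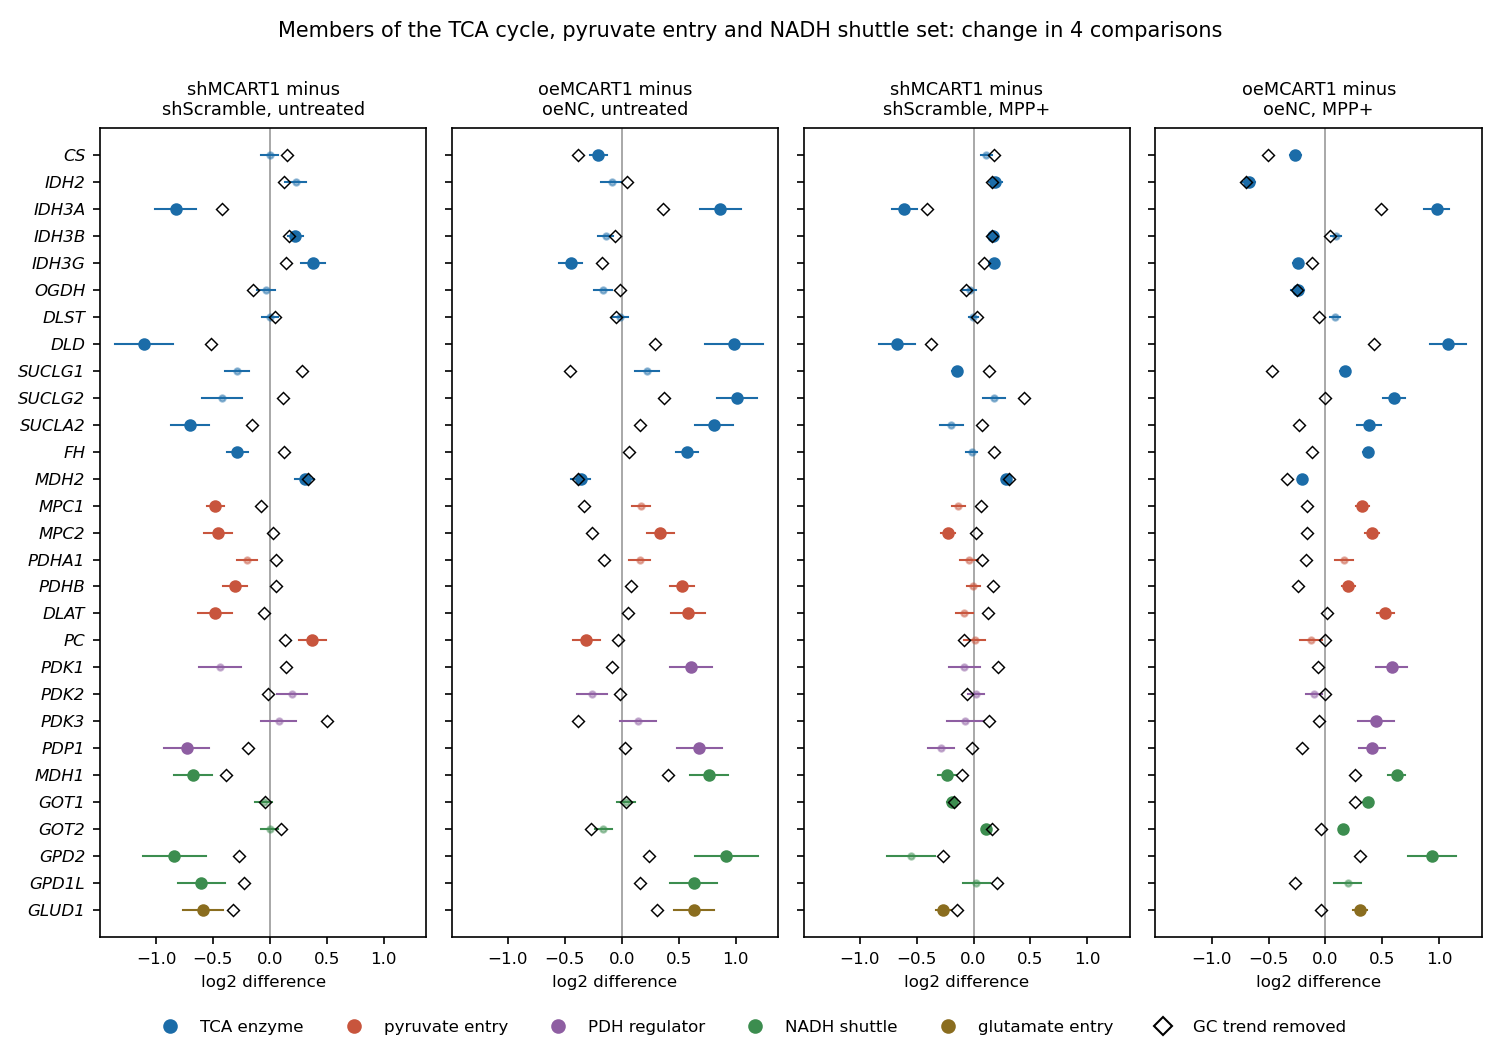
Log2 difference of each of the 29 genes in 4 comparisons: filled circles with SE from the TPM as deposited (large where the adjusted p was under 0.05, small and pale otherwise), open diamonds with the GC trend removed. IDH3A and MDH2 keep opposite signs in every panel, while most genes of pyruvate entry move to or past 0 once the trend is removed.

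Overexpression of MCART1 in untreated cells asked the converse. In oeMCART1 against oeNC libraries 18 of the 29 genes passed, where 48.2% of all genes did. Of these, 14 were higher (33.5% of all genes were) and 4 were lower (14.7% of all genes were). The median change was 0.22 in the set and 0.16 in all genes. Higher levels were found for 5 TCA enzymes, 3 genes of pyruvate entry, 2 regulators, 3 shuttle genes and GLUD1, and the 4 lower ones were IDH3G, MDH2, PC and CS.

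IDH3A had 42.6, 41.6 and 39.8 TPM in oeMCART1 libraries, against 18.45, 27.5 and 21.6 TPM in oeNC libraries (0.87 ± 0.18 SE, adjusted p = 0.0052, limma). All oeMCART1 libraries lay above all oeNC libraries. SUCLG2, the subunit of the GTP-forming succinyl-CoA ligase, had 31.3, 31.2 and 29.5 TPM in oeMCART1 libraries, against 11.4, 18.4 and 15.1 TPM in oeNC libraries (1.01 ± 0.18, adjusted p = 0.0041). MDH1 had 254, 250.5 and 235 TPM in oeMCART1 libraries, against 128, 162 and 145 TPM in oeNC libraries (0.77 ± 0.17, adjusted p = 0.00584). In each of these genes oeNC replicate 1 was the lowest library and oeNC replicate 2 the highest of its group.

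MDH2 was lower, with 241, 235 and 242 TPM in oeMCART1 libraries, against 309, 291 and 323 TPM in oeNC libraries (-0.36 ± 0.08, adjusted p = 0.00641). CS had 262, 250.4 and 268 TPM in oeMCART1 libraries, against 289, 304 and 309 TPM in oeNC libraries (-0.21 ± 0.07, adjusted p = 0.0383), and its call was lost without any 1 of the 6 libraries (adjusted p up to 0.126). IDH3G had 84.1, 80.7 and 79.3 TPM in oeMCART1 libraries, against 121, 102 and 113 TPM in oeNC libraries (-0.45 ± 0.10, adjusted p = 0.00693). PC had 7.29, 6.02 and 6.62 TPM in oeMCART1 libraries, against 8.42, 8.43 and 8.56 TPM in oeNC libraries (-0.31 ± 0.12, adjusted p = 0.0451), a call lost in 5 of 6 fits without 1 library (up to 0.157). The groups of these 4 genes did not overlap. DLD had 43.6, 44.6 and 49.3 TPM in oeMCART1 libraries, against 17.8, 29.3 and 21.9 TPM in oeNC libraries (0.99 ± 0.26, adjusted p = 0.0101). GPD2 had 6.26, 8.36 and 7.03 TPM in oeMCART1 libraries, against 3.10, 3.97 and 2.95 TPM in oeNC libraries (0.92 ± 0.28, adjusted p = 0.0183). Both lay higher in every oeMCART1 library. PDHB rose by 0.53 ± 0.11 (adjusted p = 0.00492) and GLUD1 by 0.64 ± 0.18 (0.0132).

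After the GC trend was removed, 12 of the 29 genes passed (18.2% of all genes did), 4 higher (9.27% were) and 8 lower (8.95% were). IDH3A (0.36, adjusted p = 0.0157), SUCLG2 (0.37, 0.0111), MDH1 (0.41, 0.0137) and GLUD1 (0.31, 0.0445) stayed higher, and MDH2 (-0.38, 0.0181), CS (-0.39, 0.0111) and IDH3G (-0.17, 0.0408) stayed lower. All of these but IDH3G were called under both other scalings and with the length trend removed. MPC2 was called higher as deposited (0.34, adjusted p = 0.0378) and lower with the trend removed (-0.26, 0.00558). DLD (0.29, adjusted p = 0.176), GPD2 (0.24, 0.479), PDHB (0.08, 0.328) and PC (-0.03, 0.776) no longer passed. Median-of-ratios scaling gave 13 higher and 9 lower calls (3827 and 3817 of 14627 genes), and quantile normalization 12 and 7 (3711 and 4014 of 14703). Without oeNC replicate 1, 10 of the 29 passed in the values as deposited (4005 of 14644 genes did). GLUD1 (0.50, adjusted p = 0.06) and PDP1 (0.52, 0.0743) were the calls lost only there. GPD2 was lost without oeNC replicate 1, oeNC replicate 3 or oeMCART1 replicate 2 (adjusted p up to 0.0647), and MPC2 in 5 of 6 such fits (up to 0.143). GPD1L was kept in 1 of 6 (adjusted p up to 0.112) and PDK1 in 2 of 6 (up to 0.0816), and PDK1 changed sign with the GC trend removed. Of the 18 calls, 10 held in every fit that left out 1 library.

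The same pair of questions was put to cells given MPP+. In shMCART1 against shScramble libraries with MPP+, 12 of the 29 genes passed, where 33.1% of all genes did: 5 were higher (10.8% of all genes were) and 7 were lower (22.2% were). The medians were -0.04 in the set and -0.08 in all genes. IDH3A had 21.3, 18.0 and 20.4 TPM in shMCART1 libraries with MPP+, against 26.9, 33.7 and 32.2 TPM in shScramble libraries with MPP+ (-0.61 ± 0.11 SE, adjusted p = 0.00173, limma). DLD had 12.2, 13.85 and 13.5 TPM in shMCART1 libraries, against 18.4, 20.9 and 26.0 TPM in shScramble libraries (-0.67 ± 0.16, adjusted p = 0.00752). MDH2 had 236, 224 and 228 TPM in shMCART1 libraries, against 187, 188 and 189 TPM in shScramble libraries (0.29 ± 0.04, adjusted p = 0.000363). None of these groups overlapped, and the 3 genes were called in all 6 fits that left out 1 library.

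Both cytosolic members of the malate-aspartate shuttle were lower and both matrix members higher under MPP+ with knockdown. GOT1, the cytosolic aspartate transaminase, had 62.65, 66.6 and 65.6 TPM in shMCART1 libraries, against 72.4, 72.95 and 77.3 TPM in shScramble libraries (-0.19 ± 0.04, adjusted p = 0.00778). MDH1 fell by 0.23 ± 0.08 (adjusted p = 0.0344). GOT2, the matrix transaminase, had 144, 145 and 143 TPM in shMCART1 libraries, against 132, 135 and 133 TPM in shScramble libraries (0.11 ± 0.04, adjusted p = 0.0444). The GOT2 call was lost without any 1 library (adjusted p up to 0.12), and that of MDH1 without shScramble replicate 2 or 3 or shMCART1 replicate 1 or 2 (up to 0.122). Free of the GC trend, GOT1 (-0.17, adjusted p = 0.00387) and GOT2 (0.16, 0.00595) passed, and MDH1 (-0.10, 0.219) did not. Under median-of-ratios scaling GOT1 (-0.08) and MDH1 (-0.12) did not pass.

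Of the regulatory subunits of the NAD+-dependent dehydrogenase, IDH3B had 138, 137 and 133 TPM in shMCART1 libraries with MPP+, against 124, 115 and 122 TPM in shScramble libraries with MPP+ (0.17 ± 0.04, adjusted p = 0.00889), and IDH3G had 105, 108 and 112 TPM, against 98.6, 94.15 and 93.9 TPM (0.18 ± 0.04, 0.00897). IDH2, the NADP+-dependent enzyme of the matrix, had 82.15, 75.4 and 78.5 TPM in shMCART1 libraries, against 69.8, 68.3 and 68.35 TPM in shScramble libraries (0.19 ± 0.06, adjusted p = 0.0228). The IDH2 call was lost without shScramble replicate 2 or 3 or shMCART1 replicate 1 (adjusted p up to 0.0903). GLUD1 had 75.7, 74.2 and 75.95 TPM in shMCART1 libraries, against 89.1, 91.6 and 91.1 TPM in shScramble libraries (-0.26 ± 0.06, adjusted p = 0.00748), and did not pass under median-of-ratios scaling (-0.15, 0.0537). After removal of the GC trend 11 of the 29 passed (28.7% of all genes did), 7 higher (13.8% were) and 4 lower (14.9% were), the lower ones being IDH3A (-0.41, adjusted p = 0.00411), DLD (-0.37, 0.0323), GOT1 and GLUD1 (-0.14, 0.0276). MDH2 (0.31, 0.0003) and IDH3B (0.17, 0.00667) were among the 7 higher, while IDH3G (0.09, 0.131) and IDH2 (0.16, 0.0534) no longer passed. Median-of-ratios scaling gave 7 higher and 2 lower calls (2609 and 2230 of 14818 genes). Quantile normalization gave 6 of each (2373 higher and 2479 lower of 14895 genes).

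In oeMCART1 against oeNC libraries with MPP+, 23 of the 29 genes passed, where 60.9% of all genes did: 18 were higher (46.7% of all genes were) and 5 were lower (14.2% were). The medians were 0.30 in the set and 0.26 in all genes. IDH2 had the largest decrease, with 42.2, 44.6 and 47.4 TPM in oeMCART1 libraries, against 75.8, 72.3 and 67.9 TPM in oeNC libraries (-0.67 ± 0.06 SE, adjusted p = 2.6e-06, limma). The groups lay far apart, and the value with the GC trend removed was -0.69 (adjusted p = 4.63e-06). CS had 181, 175 and 169.7 TPM in oeMCART1 libraries, against 229.7, 200.3 and 202 TPM in oeNC libraries (-0.26 ± 0.05, adjusted p = 0.000655; GC trend removed -0.50, 4.37e-06). OGDH, the first subunit of the 2-oxoglutarate dehydrogenase complex, had 18.0, 17.2 and 18.6 TPM in oeMCART1 libraries, against 22.3, 21.1 and 21.0 TPM in oeNC libraries (-0.25 ± 0.06, adjusted p = 0.00284; GC trend removed -0.25, 0.00135). MDH2 had 177, 179 and 192 TPM in oeMCART1 libraries, against 215, 209 and 209 TPM in oeNC libraries (-0.21 ± 0.04, adjusted p = 0.000586).

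On the higher side, IDH3A had 45.5, 39.3 and 34.95 TPM in oeMCART1 libraries with MPP+, against 19.4, 21.2 and 18.4 TPM in oeNC libraries with MPP+ (0.98 ± 0.11, adjusted p = 1.43e-05). DLD had 28.85, 24.2 and 23.0 TPM in oeMCART1 libraries, against 14.0, 12.2 and 8.70 TPM in oeNC libraries (1.08 ± 0.16, adjusted p = 0.000106). MDH1 had 229, 224 and 206 TPM in oeMCART1 libraries, against 141, 159 and 127 TPM in oeNC libraries (0.63 ± 0.08, adjusted p = 2.72e-05). All 3 were also called with the GC trend removed, at 0.49 (adjusted p = 0.000577), 0.42 (0.0104) and 0.26 (0.00337). GOT1 had 83.9, 79.8 and 84.6 TPM in oeMCART1 libraries, against 64.8, 63.3 and 63.1 TPM in oeNC libraries (0.37 ± 0.04, adjusted p = 2.59e-05; GC trend removed 0.26, 0.000131), and under median-of-ratios scaling it stood at 0.05 and did not pass. GPD2 had 7.47, 5.32 and 4.82 TPM in oeMCART1 libraries, against 2.24, 3.45 and 2.08 TPM in oeNC libraries (0.94 ± 0.21, adjusted p = 0.0021), and stood at 0.30 (0.185) with the trend removed.

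The balance of higher and lower calls depended on the scale in this comparison, in the set and over all genes. With the GC trend removed 16 of the 29 genes passed (48.1% of all genes did), 4 higher (26.2% were) and 12 lower (21.9% were). Median-of-ratios scaling put the all-gene median at -0.01 and gave 6 higher and 11 lower calls (3944 and 4338 of 14818 genes). Quantile normalization gave 8 of each (4147 higher and 3930 lower of 14895 genes). GOT2 was called higher as deposited (0.16, adjusted p = 0.00384) and lower under median-of-ratios scaling (-0.17, 0.00447). The 5 genes called higher as deposited and lower with the trend removed were SUCLG1 (0.17 and -0.47), SUCLA2 (0.38 and -0.23), MPC1 (0.32 and -0.16), MPC2 (0.41 and -0.16) and PDHB (0.20 and -0.24). The kinase PDK1 (0.58 ± 0.14, adjusted p = 0.00281) and the phosphatase PDP1 (0.41 ± 0.11, 0.00851), which act on pyruvate dehydrogenase in opposite senses, were both higher as deposited and did not pass with the trend removed (-0.07 and -0.21). In the values as deposited, 22 of the 23 calls held in every fit that left out 1 library. With the GC trend removed, 12 of the 23 changed sign. Besides the genes given above these were SUCLG2, FH, PDK3, GOT2 and GLUD1, which did not pass with the trend removed. The call of PDK3 (0.45, adjusted p = 0.0289) was lost without oeNC replicate 1 or oeMCART1 replicate 1 (up to 0.123).

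**Figure D3:**
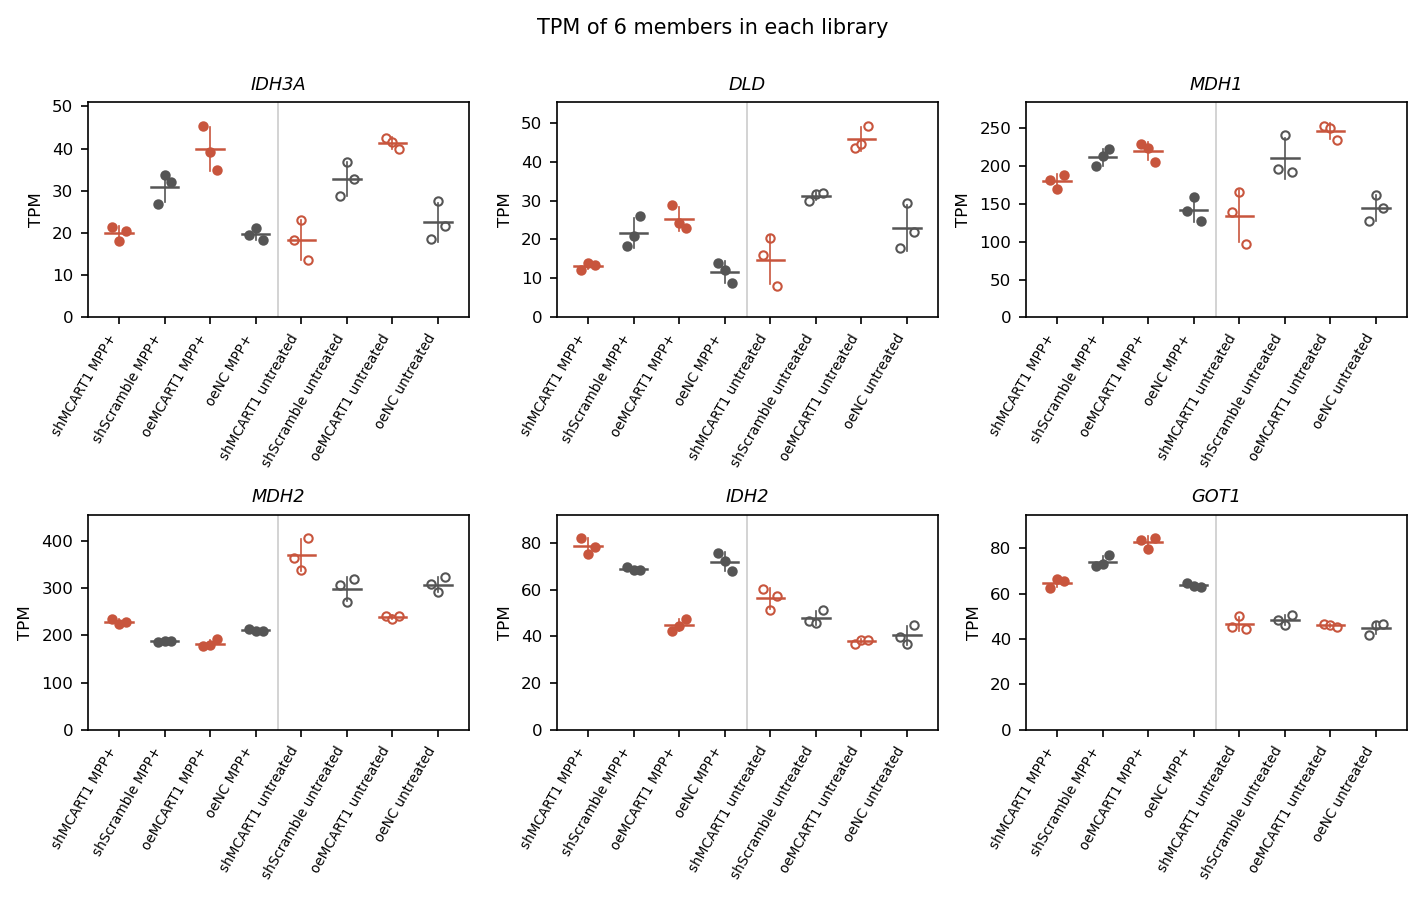
TPM of 6 genes in each library (points), with the mean (horizontal line) and SD (vertical line) of each group of 3; MPP+ groups with filled points are left of untreated groups with open points, and MCART1 constructs in orange are left of their controls in grey. IDH3A lies below its control with the hairpin and above it with overexpression, MDH2 lies the other way round, and IDH2 in oeMCART1 libraries with MPP+ (42.2 to 47.4 TPM) is well under the other 3 MPP+ groups.

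The knockdown and overexpression comparisons share no libraries, so their calls are set beside each other. Within a table their tests share 1 estimate of spread, from the 4 groups fitted together, so the calls are not fully independent. As deposited, 5 genes were lower in both knockdown and higher in both overexpression comparisons (IDH3A, DLD, MPC2, MDH1, GLUD1), where 12.5% of the 13571 genes tested in both tables were, and 2 were the reverse (IDH3G, MDH2), as were 1.89% of all genes. DLST, PDHA1 and PDK2 were called in none of the 4 (18.7% of all genes were). Once the GC trend was removed, IDH3A was the 1 gene of the first kind (1.34% of all genes were of it) and MDH2 the 1 gene of the second (1% were), and 7 were called in none (34.9% were). IDH3A and MDH2 held these calls in all 4 comparisons under all 5 settings: as deposited, both other scalings, and removal of the GC trend alone or with length. Over all genes 1.09% held the calls of the first kind in all 5 settings and 0.146% those of the second. Both genes also differed between the control constructs with MPP+, as given below. MDH2 was called higher in oeNC than in shScramble libraries under all 5 settings, and IDH3A was called lower there as deposited. In the fits that left out 1 library, both were called in all 6 of each comparison other than untreated knockdown, where IDH3A was called in 5 and MDH2 in 3.

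Some members share their place in the genome with genes on the other strand, and whether the authors counted by strand is unknown here, so reads of such pairs cannot be told apart. On GRCh38 in GENCODE 29, which may not be the authors' annotation, IDH3A overlaps CIB2 (up to 36.4 TPM in an untreated library), DLD overlaps LAMB1 (up to 58.3 TPM in a library with MPP+) and IDH3G overlaps SSR4 (up to 1235 TPM in an untreated library). SUCLA2, MPC2, PC and GLUD1 overlap opposite-strand genes of up to 39.9 TPM, and CS overlaps a gene on its own strand, AC073896.1, of up to 48.8 TPM. GLUD1 also has a near-identical copy, GLUD2, which was too low to be tested, and reads could be split between them.

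The 2 control constructs were also set against each other, and that contrast uses the same control libraries as the comparisons above, so it is given for the levels only. In oeNC against shScramble libraries without MPP+ none of the 29 genes passed by limma (1.29% of all genes did, 0.197% higher and 1.09% lower). An unadjusted p under 0.05 by limma was found for 16, 1 higher and 15 lower, and for 4511 of 14703 genes in all. Removal of the GC trend left 4 that passed (7.54% of all genes did), 2 higher (3.38% were) and 2 lower (4.15% were). Without oeNC replicate 2, 11 passed, all lower (2250 of 14632 genes passed, 121 higher and 2129 lower). With MPP+, 20 of the 29 passed (47.9% of all genes did): 3 were higher (5.13% were) and 17 lower (42.8% were). IDH3A had 19.4, 21.2 and 18.4 TPM in oeNC libraries with MPP+, against 26.9, 33.7 and 32.2 TPM in shScramble libraries with MPP+ (-0.62 ± 0.11 SE, adjusted p = 0.000792), and MDH2 was higher by 0.16 ± 0.04 (adjusted p = 0.0041). DLD had 14.0, 12.2 and 8.70 TPM in oeNC libraries, against 18.4, 20.9 and 26.0 TPM in shScramble libraries (-0.86 ± 0.16, adjusted p = 0.00107), and GPD2 had 2.24, 3.45 and 2.08 TPM, against 5.39, 5.55 and 6.04 TPM (-0.91 ± 0.21, 0.004). PDP1 had 4.08, 3.90 and 3.12 TPM in oeNC libraries, against 5.40, 7.18 and 6.56 TPM in shScramble libraries (-0.65 ± 0.11, adjusted p = 0.000845). IDH3G (107, 106 and 109 TPM, against 98.6, 94.15 and 93.9 TPM) and IDH3B (134, 129 and 137 TPM, against 124, 115 and 122 TPM) were higher by 0.17 and 0.15, and the IDH3B call was lost without shScramble replicate 2 (0.12, adjusted p = 0.0604). With the GC trend removed 14 of the 29 passed (24.1% of all genes did), 12 higher (13.1% were) and 2 lower (10.9% were). In that fit MDH2 (0.34, adjusted p = 0.000174), IDH3B (0.28, 0.000429), IDH3G (0.18, 0.00974) and MDH1 (-0.22, 0.0183) passed. DLD (-0.34, adjusted p = 0.0512), GPD2 (-0.40, 0.123), PDP1 (-0.15, 0.199) and IDH3A (-0.19, 0.117) did not. Median-of-ratios scaling gave 10 higher and 5 lower calls (3328 and 2471 of 14818 genes), and quantile normalization 4 and 6 (2459 and 2478 of 14895). With MPP+, IDH3A averaged 19.9 ± 1.72 TPM in shMCART1 and 19.7 ± 1.42 TPM in oeNC libraries (SD, n = 3 each), a pair not tested against each other.

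Whether MPP+ changed the effect of either construct was tested with all 24 libraries in 1 limma fit, as the effect with MPP+ minus the effect without. The overexpression effect on SLC25A51 itself differed by 2.23 ± 0.18 SE (adjusted p = 1.71e-07), with oeNC libraries at 7.87 to 9.44 TPM with MPP+ and 29.5 to 35.7 TPM without, so a change with MPP+ and one with this difference in the contrast cannot be told apart. For overexpression 4 of the 29 genes passed (17.8% of all genes did): GOT1, GOT2 and IDH3B with a positive difference (12.6% of all genes were) and IDH2 with a negative one (5.24% were). IDH2 had an effect of -0.67 with MPP+ and of -0.09 without it, a difference of -0.59 ± 0.11 SE (adjusted p = 0.000654). In untreated cells its levels were 36.9, 38.3 and 38.6 TPM in oeMCART1 libraries, against 39.5, 36.9 and 44.8 TPM in oeNC libraries, which overlapped. Removing the GC trend gave 9 calls among the 29 (24.4% of all genes did), 2 higher (13.2% were) and 7 lower (11.2% were). The IDH2 difference was called in all 12 fits that left out 1 library and in all 5 settings of scaling and GC (-0.74 with the GC trend removed, adjusted p = 1.52e-05).

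GOT1 differed by 0.34 ± 0.08 (adjusted p = 0.00694) and GOT2 by 0.32 ± 0.08 (0.00837), at 0.22 (0.00561) and 0.23 (0.00347) with the GC trend removed, and neither passed under median-of-ratios scaling (0.22 and 0.20). The IDH3B difference of 0.24 ± 0.07 (adjusted p = 0.032) did not pass with the GC trend removed (0.10, 0.236) and was lost in 9 of 12 fits that left out 1 library (up to 0.0861). For knockdown, MPC1 was the 1 gene of 29 that passed (3.87% of all genes did, 1.72% higher and 2.15% lower), with a difference of 0.35 ± 0.09 (adjusted p = 0.0421). As deposited, 9 of the 29 had an unadjusted p under 0.05 by limma, as did 3528 of 15653 genes in all. With the GC trend removed none of the 29 passed by limma (7.13% of all genes did, 3.23% higher and 3.9% lower), and MPC1 stood at 0.15 (adjusted p = 0.332). The MPC1 call was lost in 10 of the 12 fits that left out 1 library (up to 0.107). Its log2 change was -0.48 without MPP+, and with MPP+ the levels were 63.3, 68.4 and 72.6 TPM in shMCART1 libraries, against 74.6, 77.6 and 71.8 TPM in shScramble libraries, which overlapped.

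MPP+ and untreated libraries were deposited in separate tables, so their levels are set side by side with no test, and MPP+ and separate processing of the tables cannot be told apart. All 12 MPP+ libraries lay above all 12 untreated ones for 1 of the 29 genes (5.56% of all genes), GOT1, and below them for 3 (7.07% of all genes), CS, OGDH and GOT2. GOT1 averaged 82.8 ± 2.59, 63.7 ± 0.935, 64.95 ± 2.06 and 74.2 ± 2.67 TPM with MPP+ in oeMCART1, oeNC, shMCART1 and shScramble libraries, against 46.1 ± 0.777, 44.96 ± 2.53, 46.7 ± 3.15 and 48.5 ± 2.31 TPM without (SD, n = 3 each). The ratio ran from 1.39 in shMCART1 to 1.80 in oeMCART1 libraries. GOT2, which catalyses the same reaction in the matrix, had ratios of 0.562 in oeNC to 0.702 in oeMCART1 libraries. CS had ratios of 0.671 to 0.728 and OGDH of 0.660 to 0.701.

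MDH2 had ratios of 0.621 in shMCART1 to 0.765 in oeMCART1 libraries, and it too was below in all libraries once both tables were rescaled over the identifiers they share. IDH2 was above in all 4 constructs, with a ratio of 1.78 in oeNC and 1.18 in oeMCART1 libraries. IDH3A was near level, with ratios of 0.875 in oeNC to 1.08 in shMCART1 libraries. DLAT, the acetyl-carrying subunit of pyruvate dehydrogenase, had ratios of 0.556 to 0.762. The shares of TPM moved with this comparison: mRNAs of mitochondrial DNA took 0.284 to 0.724% of TPM with MPP+, against 4.44 to 8.70% without, by group means. Rescaled without those mRNAs, the separated genes were GOT1 above and CS, OGDH, MDH2 and GOT2 below. The part of that shift in the ratios was not tested beyond this.

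**Figure D4:**
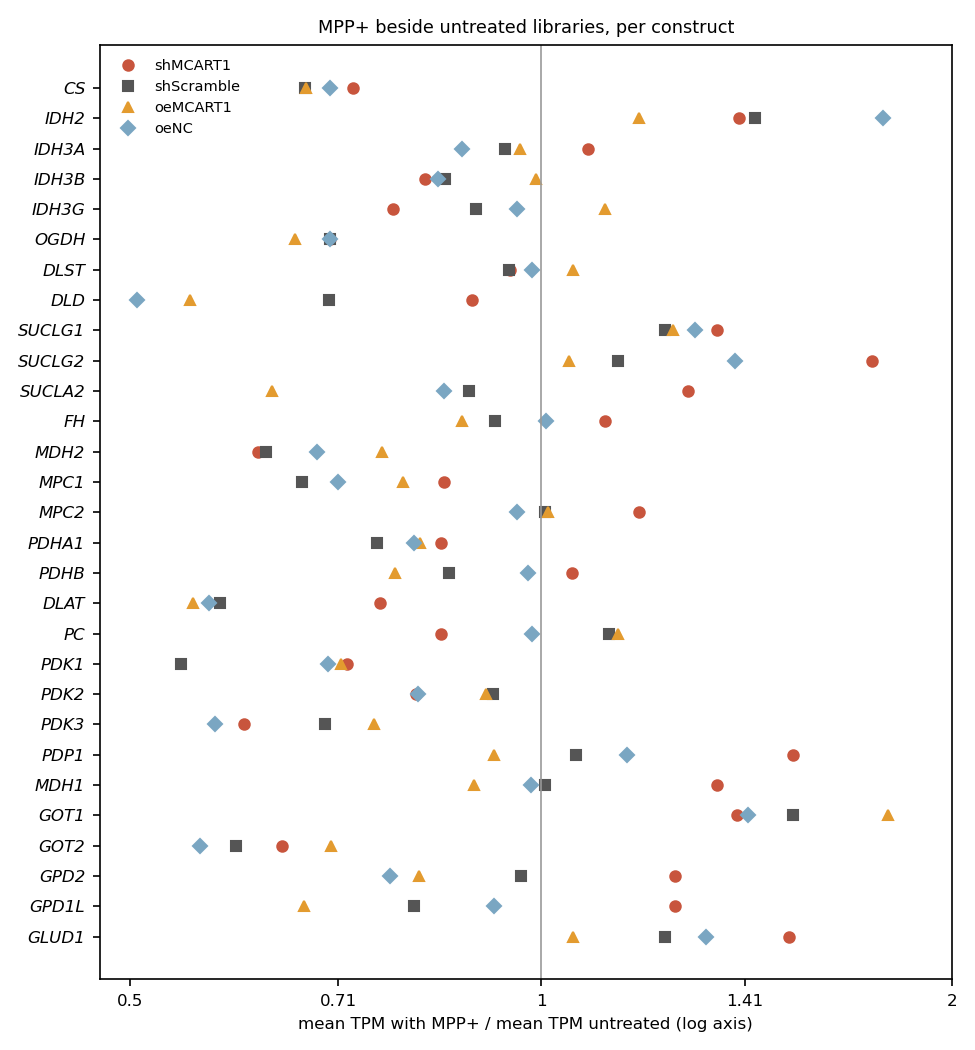
Ratio of mean TPM with MPP+ to mean TPM without it (log axis) for the 29 genes, per construct. GOT1 lies right of 1 (1.39 to 1.80) and CS, OGDH, MDH2 and GOT2 left of 1 in all 4 constructs, while IDH3A stays close to 1.

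Other genes of the pathway were read from a list of 36, of which 32 were tested without and 33 with MPP+. In untreated knockdown 4 were higher and 10 lower, and in untreated overexpression 12 were higher and 6 lower. With MPP+ knockdown gave 4 higher and 9 lower, and overexpression 16 higher and 6 lower. The background shares are those given above. ME2, the matrix malic enzyme that makes pyruvate from malate with NAD+, had 11.8, 12.02 and 12.8 TPM in shMCART1 libraries with MPP+, against 21.1, 23.5 and 23.0 TPM in shScramble libraries with MPP+ (-0.83 ± 0.08 SE, adjusted p = 5.9e-05, limma; GC trend removed -0.55, 4.55e-05). It had 28.6, 27.8 and 23.9 TPM in oeMCART1 libraries with MPP+, against 14.3, 14.6 and 13.4 TPM in oeNC libraries with MPP+ (0.87 ± 0.08, adjusted p = 3.34e-06; GC trend removed 0.25, 0.00136). In untreated knockdown ME2 changed by -1.09 ± 0.21 (adjusted p = 0.0139), and without shScramble replicate 2 by -0.98 (0.0743).

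SLC25A13, an aspartate-glutamate carrier of the malate-aspartate shuttle, had 38.5, 40.8 and 34.8 TPM in oeMCART1 libraries with MPP+, against 13.2, 16.9 and 16.5 TPM in oeNC libraries with MPP+ (1.24 ± 0.10, adjusted p = 2.72e-06; GC trend removed 0.81, 6.3e-05). It fell by 0.53 ± 0.10 with knockdown and MPP+ (adjusted p = 0.00287; GC trend removed -0.37, 0.0174), and the overexpression effect differed between MPP+ and untreated cells by 0.72 ± 0.17 (0.00634). SLC25A1, the citrate carrier, moved the other way: it fell by 0.70 ± 0.05 with overexpression and MPP+ (adjusted p = 1.25e-06) and rose by 0.32 ± 0.05 with knockdown and MPP+ (0.000932). OGDHL, a form of OGDH, and SDHA, the flavoprotein of succinate dehydrogenase, did the same, with -0.46 and -0.22 for overexpression and 0.30 and 0.15 for knockdown under MPP+, all called as deposited and with the GC trend removed. SDHD, an anchor subunit of the same complex as SDHA, was higher in both overexpression comparisons (0.99 untreated and 0.80 with MPP+). LIPT2, which transfers octanoyl groups for lipoate synthesis, rose by 0.88 ± 0.28 with overexpression and MPP+ (adjusted p = 0.0158), and this call was lost without oeNC replicate 3 or oeMCART1 replicate 1 (up to 0.0597).

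In untreated cells, PCK2, the matrix phosphoenolpyruvate carboxykinase, was higher with knockdown (0.55 ± 0.13, adjusted p = 0.0167; GC trend removed 0.30, 0.054), as was SIRT3, the NAD+-dependent matrix deacetylase (0.40 ± 0.12, 0.0313; GC trend removed 0.22, 0.146). Without shScramble replicate 2 or shMCART1 replicate 3 PCK2 did not pass (0.45, adjusted p = 0.08 at the highest), and SIRT3 was lost there and without shMCART1 replicate 1 (0.30, 0.123). With overexpression SDHD rose by 0.99 ± 0.18 (0.00427), ME2 by 0.98 ± 0.21 (0.00589; GC trend removed 0.31, 0.0554), and the carriers SLC25A10 for dicarboxylates and SLC25A1 fell by 0.61 ± 0.12 (0.00475) and 0.55 ± 0.12 (0.00657). These 4 were called in all 6 fits that left out 1 library. Between the controls with MPP+, IDH1, the cytosolic NADP+-dependent isocitrate dehydrogenase, was lower in oeNC libraries (-0.75 ± 0.09, adjusted p = 0.000104), and SLC25A1 was higher (0.29 ± 0.05, 0.000858). SDHA was higher (0.13 ± 0.04, 0.0188) and LIPT2 lower (-0.85 ± 0.28, 0.0241) there, and these calls were lost in 2 and 4 of the 6 fits that left out 1 library (up to 0.0725 and 0.104).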

How the data were processed

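RNA of 24 libraries (polyadenylated RNA, strand-specific kit, per the labels) was read from 2 deposited tables of TPM, 12 libraries each. The sources used here do not give the authors' aligner, quantifier or annotation, and the submitters' processing notes list GRCh38 beside GRCm38 and mm10. Entries without a gene identifier (25 and 42) were left out. TPM keep no depth, so no counting interval is given. Groups come from the labels.

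Log2 of TPM plus a pseudocount of 1 was fitted with limma 3.58.1 in R 4.3.3 (trended empirical Bayes; the 4 groups of a table together, and all 24 libraries for differences of effects). Tested genes had at least 1 TPM in 3 or more libraries, 14703 without and 14895 with MPP+. Calls used Benjamini-Hochberg adjustment over them and a threshold of 0.05. The GC trend was a natural spline with 5 degrees of freedom on transcript GC from GENCODE 29. It was fitted with an intercept to each library's deviation from the mean of all libraries, so each library's overall level was removed too. The all-gene median of oeMCART1 minus oeNC with MPP+ went from 0.26 to 0.02. The limma fit was tested on simulated data with independent noise for each gene and no GC trend. That test cannot speak to such a trend or to shifts shared by many genes. Alternatives were median-of-ratios scaling, quantile normalization, other filters (none, 5 TPM), a pseudocount of 0.1, mitochondrial DNA genes left out, array weights, a replicate block, only the groups compared, and each library left out. Python 3.11.15, pandas 2.3.3, numpy 2.4.6 and matplotlib 3.10.9 made tables and plots.

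Members and lists were chosen with earlier results of these data known. By rule, library values are given for up to 3 higher and 3 lower called members of largest change whose groups do not overlap, and 2 other pathway genes per direction are named; further members were named for their role, after their values were seen. Some genes of these lists are not reported here.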

Additional observations from a re-analysis of the deposited data

Results flagged for a closer look

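The effect of a construct differed between cells with and without MPP+, by the limma test of the difference itself (adjusted over all genes), for 11 named results. For overexpression, the effect with MPP+ minus that without was -0.59 (-0.5887) for IDH2, 0.24 (0.2357) for IDH3B, 0.34 (0.3351) for GOT1 and 0.32 (0.3174) for GOT2. Among the other genes of the pathway it was 0.72 (0.7207) for SLC25A13, 0.55 (0.5525) for the glutamine carrier SLC1A5, -0.50 (-0.4955) for LIAS, which makes lipoate, and -0.84 (-0.8359) for the kinase PDK4. PDK4 lay at 0.35 to 0.70 TPM in oeMCART1 and 0.60 to 1.39 TPM in oeNC libraries with MPP+, and at 0.87 to 1.30 TPM in oeMCART1 and 0.31 to 0.70 TPM in oeNC libraries without it, so its values were close to the filter of 1 TPM. For knockdown the difference was 0.35 (0.3468) for MPC1, -0.52 (-0.5162) for PCK2 and -0.37 (-0.3722) for SLC1A5. All but MPC1 and IDH3B were also called with the GC trend removed. The calls for IDH2, GOT1, GOT2, SLC25A13, SLC1A5 (overexpression) and PDK4 held in all 12 fits that left out 1 library, while those for MPC1 and PCK2 (knockdown) and LIAS held in 2, that for IDH3B in 3 and that for SLC1A5 in knockdown in 5. The overexpression effect on SLC25A51 differed as well, by 2.23 (adjusted p = 1.71e-07).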

How the results depend on the processing

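The number of the 29 genes called moved by more than 1.5 times as follows, with the calls over all genes tested in brackets. Knockdown without MPP+ gave 17 calls (5035 of 14703 genes), 2 with no filter on low values (1272 of 32421) and 7 with the GC trend removed (1501 of 14157). It gave 8 with GC and length trends removed (1649 of 14157) and 8 with the replicate block and the GC trend removed (2198 of 14157). Only the groups compared gave 5 (1788 of 13893), and the fits that left out 1 library 0 to 22 (2 of 14611 to 7247 of 14595). Overexpression without MPP+ gave 18 calls (7082 of 14703), 11 with GC and length removed (2709 of 14157), and 10 to 16 with 1 library left out (4005 of 14644 to 7696 of 14632). Knockdown with MPP+ gave 12 calls (4924 of 14895) and 8 to 12 with 1 library left out (3413 of 14752 to 4600 of 14766). Overexpression with MPP+ gave 23 (9067 of 14895), 15 with the block and GC removed (6607 of 13923), and 22 to 24 with 1 library left out (8143 of 14723 to 8707 of 14835). For oeNC against shScramble without MPP+, 0 calls (189 of 14703) became 8 with the replicate block (1936 of 14703) and 19 with array weights (8041 of 14703). That contrast gave 4 with GC removed (1067 of 14157), 3 with GC and length removed (1097 of 14157) and 8 with the block and GC removed (1344 of 14157). With 1 library left out it gave 0 to 11 (6 of 14644 to 2250 of 14632). The same contrast with MPP+ gave 20 (7134 of 14895), 10 with quantile normalization (4937 of 14895) and 11 with GC and length removed (3302 of 13923). It gave 11 with the block and GC removed (3214 of 13923) and 14 to 19 with 1 library left out (5627 of 14752 to 6809 of 14835). For the knockdown difference, 1 call (605 of 15653) became 0 with no filter (445 of 30714) and with median-of-ratios scaling (706 of 15578). It also became 0 with GC removed (1068 of 14978) and with only the groups compared (122 of 14872). It became 2 with the block (1097 of 15653), 12 with array weights (4619 of 15653) and 0 to 9 with 1 library left out (265 of 15579 to 2466 of 15606). For the overexpression difference, 4 (2787 of 15653) became 12 with array weights (6160 of 15653), 9 with GC removed (3653 of 14978) and 10 with GC and length removed (3737 of 14978). It became 8 with the block and GC removed (3817 of 14978) and 3 to 6 with 1 library left out (2195 of 15623 to 2828 of 15624). The cause of these moves was not tested, except that fits without a library hold fewer samples. The replicate block moved the other counts by less than 1.5 times. Libraries with the same number had correlations of -0.0729 to 0.211 in their deviations. In both overexpression comparisons every library correlated best with its own number, and in each of the other comparisons not every library did. These values do not settle whether the numbers pair the libraries.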

Other observations

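PCK2, the matrix phosphoenolpyruvate carboxykinase, stood at 82.4 to 123.7 TPM over the 12 libraries with MPP+, against 10.0 to 23.9 TPM over the 12 without, with group means of 86.5 and 10.9 TPM in oeMCART1, 107 and 11.2 TPM in oeNC, 119.8 and 21.2 TPM in shMCART1, and 117 and 14.25 TPM in shScramble libraries with and without MPP+. LDHA, which reduces pyruvate to lactate with cytosolic NADH, lay at 329 to 439.8 TPM with MPP+, against 559 to 979 TPM without. LDHB, the other lactate dehydrogenase subunit, lay at 850.3 to 1151 TPM with MPP+, against 483 to 1496 TPM without, which overlapped. These genes were picked with their values in view, the tables were deposited separately, and no test was made.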
